A study of Mus musculus with 6 samples.

Results

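The 10 genes described here, P2ry12, P2ry13, Tmem119, Cx3cr1, Selplg, Siglech, Slc2a5, Csf1r, Gpr34 and Sall1, are the classical homeostatic genes of mouse microglia. They were taken as a fixed list of 10 of the 32285 genes in the deposited matrices, and all 10 were found there. Their levels were measured in droplet single-cell libraries of hippocampal tissue from mice aged 6 months, in 6 samples of 3 groups. The 5×FAD-Aβ3FTnAu group (2 samples) holds 5×FAD mice given Aβ3FTnAu, a protein-gold nanostructure named in the study's title as recognising and cleaving human amyloid-β plaques. The 5×FAD-PBS group (2 samples) holds 5×FAD mice given phosphate-buffered saline, and the WT-PBS group (2 samples) holds wild-type littermates given the same saline. The 5×FAD line is an amyloid model in which mutant human transgenes are driven by the neuronal Thy1 promoter. No source used here gives the strain, sex, dose, duration of treatment or cell sort, or says whether the 2 samples of a group are separate animals, so the p-values below measure the spread between samples, which may be technical.

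Microglia are the resident macrophages of the brain and depend on signalling through the Csf1r receptor for survival. In undisturbed tissue they keep a set of surface receptors with which they sense nucleotides, fractalkine and lipids, and this set is maintained by transforming growth factor beta signalling together with the transcription factors PU.1 and Sall1. Around amyloid plaques mouse microglia are known to lose many of these transcripts while others, such as Cst7, Lpl and Itgax, appear. The comparisons below address how far the homeostatic genes fell in 5×FAD hippocampus and where they stood after Aβ3FTnAu.

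So that the list did not choose its own cells, microglia were set by UMIs (unique molecular identifiers, which count captured transcript molecules) of 5 other genes: Inpp5d, Dock8, Runx1, Fyb and Ikzf1. A barcode needed at least 3 UMIs over at least 2 of these genes and at least 2000 CPM (counts-per-million, UMIs scaled to the total of the barcode). This gave 143 and 168 microglia in the 5×FAD-Aβ3FTnAu samples, 354 and 538 in the 5×FAD-PBS samples, and 247 and 103 in the WT-PBS samples, 1553 of 46289 barcodes in all. They made up 1.87% and 2.69% of barcodes in 5×FAD-Aβ3FTnAu samples, 7.15% and 6.43% in 5×FAD-PBS samples and 1.87% and 1.75% in WT-PBS samples. Levels below are CPM of the UMIs summed over the microglia of a sample, sums that ranged from 103153 to 580673 UMIs, so a lower level may reflect less transcript in each cell or fewer cells that hold it.

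The members lie on 8 chromosomes. P2ry12 (ENSMUSG00000036353; chr3:59216272-59262871) and P2ry13 (ENSMUSG00000036362; chr3:59207892-59210882), both on the minus strand of the GRCm38 build, sit inside Med12l, which is annotated on the opposite strand, and Gpr34 (X chromosome) sits inside Cask in the same way. Csf1r overlaps Hmgxb3 on the opposite strand, and the long annotated span of Cx3cr1 also covers Gorasp1, Csrnp1 and Xirp1 on its own strand and others on the opposite one. The sources used here do not state how strand was used in counting, so reads of these genes cannot be told apart with certainty. The promoters shown are those for which the gene passed the test in 5×FAD-PBS against WT-PBS (P2ry12, Slc2a5, Siglech) or the window holds a PU box (P2ry13). Each is the 250 bases before the RefSeq start in GRCm38.p6, read on the gene's own strand, with capitals marking the PU box GAGGAA, the core of PU.1 sites, and the SMAD element CAGAC, bound by SMADs, or their reverse complements.
P2ry12, chr3:59262986-59263235, minus strand: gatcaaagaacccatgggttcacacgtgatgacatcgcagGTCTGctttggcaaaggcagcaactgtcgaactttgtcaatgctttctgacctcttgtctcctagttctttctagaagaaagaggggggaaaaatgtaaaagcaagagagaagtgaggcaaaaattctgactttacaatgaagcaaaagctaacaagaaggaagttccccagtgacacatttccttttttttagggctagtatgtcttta
P2ry13, chr3:59210883-59211132, minus strand: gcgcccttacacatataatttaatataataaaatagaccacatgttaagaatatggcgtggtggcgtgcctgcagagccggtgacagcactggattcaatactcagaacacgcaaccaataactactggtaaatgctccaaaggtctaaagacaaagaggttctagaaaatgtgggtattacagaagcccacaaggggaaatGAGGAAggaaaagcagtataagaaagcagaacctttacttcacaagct
Slc2a5, chr4:150119094-150119343, plus strand: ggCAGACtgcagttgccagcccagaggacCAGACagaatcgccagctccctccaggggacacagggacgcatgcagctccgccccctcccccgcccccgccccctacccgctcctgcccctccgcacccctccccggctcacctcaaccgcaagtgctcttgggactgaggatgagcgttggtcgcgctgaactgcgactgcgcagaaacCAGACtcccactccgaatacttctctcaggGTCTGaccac
Siglech, chr7:55767934-55768183, plus strand: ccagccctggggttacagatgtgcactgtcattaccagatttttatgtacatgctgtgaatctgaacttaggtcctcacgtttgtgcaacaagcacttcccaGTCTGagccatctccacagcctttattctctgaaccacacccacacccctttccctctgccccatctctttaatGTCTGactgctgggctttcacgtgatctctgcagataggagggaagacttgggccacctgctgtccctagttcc
RefSeq windows were matched for 6 of the 10 members (P2ry12, P2ry13, Cx3cr1, Siglech, Slc2a5 and Sall1). Searched on both strands, with no overlap between the motifs in these windows, GAGGAA was found once, 48 bases before the P2ry13 start. The same 6 letters are in 23.3% of all 32851 promoter windows. CAGAC was found 4 times before Slc2a5, 2 times before Siglech and 1 time each before P2ry12, Cx3cr1 and 1 of the 3 Sall1 starts, and 42.2% of all windows hold it. A match is only a match of letters.

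The libraries differed in ways that touch every value below. Deposited barcodes numbered 5196 to 14993 per sample with 32528417 to 76780861 UMIs, and 9 to 45 barcode sequences were shared between any pair of libraries, at most 0.561% of the smaller library. Microglia without a single mitochondrial UMI made up 68.5% and 70.2% in 5×FAD-Aβ3FTnAu samples, 23.4% and 17.5% in 5×FAD-PBS samples, and 62.3% and 32.0% in WT-PBS samples. General microglia markers outside the list (C1qa, C1qb, C1qc, Ctss, Tyrobp, Trem2, Aif1, Itgam and Fcer1g) were detected, 9 of 9, in every sample, at a summed 3073 and 2739 CPM in 5×FAD-Aβ3FTnAu samples, 7048 and 8413 CPM in 5×FAD-PBS samples, and 9629 and 3354 CPM in WT-PBS samples. The WT-PBS samples thus stood further apart than the others. The chi-square of their counts over its degrees of freedom was 3.47, against 1.31 for the pair of 5×FAD-Aβ3FTnAu samples and 1.45 for the pair of 5×FAD-PBS samples. Markers of border macrophages (8 genes, with Pf4 and Cbr2 at 0 in 5 of the 6 samples) summed to 121 and 109 CPM in 5×FAD-Aβ3FTnAu samples, 146 and 87.8 CPM in 5×FAD-PBS samples, and 194 and 291 CPM in WT-PBS samples. Those of neutrophils and monocytes (6 genes, S100a8 and S100a9 at 0 in all 6 samples) summed to 595 and 568 CPM in 5×FAD-Aβ3FTnAu samples. The sums were 654 and 642 CPM in 5×FAD-PBS samples and 413 and 388 CPM in WT-PBS samples. Ly6c2 was at 0 in every 5×FAD sample. Of these markers Csf3r alone had UMIs in 5×FAD-Aβ3FTnAu replicate 2, so there the sum rests on 1 gene. The sums are therefore not read as a number of neutrophils or monocytes. Markers of lymphocytes summed to 161 and 11.5 CPM in 5×FAD-Aβ3FTnAu samples, 85.1 and 25.8 CPM in 5×FAD-PBS samples and 50.5 and 48.5 CPM in WT-PBS samples. Leaving out barcodes that held a UMI of any of these lists kept 92 of 143 and 94 of 168 microglia in 5×FAD-Aβ3FTnAu samples. It kept 146 of 354 and 272 of 538 in 5×FAD-PBS samples, and 164 of 247 and 64 of 103 in WT-PBS samples. As 1 UMI was enough to leave a barcode out, this is not a clean removal of other leukocytes. In the barcodes kept, 4 members were called lower in 5×FAD-PBS against WT-PBS (5.35% of genes called). In 5×FAD-Aβ3FTnAu against WT-PBS 4 were called lower as well (5.63%). Beyond that, the part of such cells in the results was not tested.

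Several homeostatic genes were lower in 5×FAD microglia, with or without Aβ3FTnAu. None was called different between the 2 groups of 5×FAD mice in the fit over all 6 samples. Against WT-PBS, 4 of 10 members fell in 5×FAD-PBS (P2ry12, Selplg, Siglech and Slc2a5), where 3.04% of the 5157 genes tested were called lower and 4.32% higher (edgeR quasi-likelihood test, Benjamini-Hochberg adjusted p under 0.05 over all genes tested). Against the same WT-PBS samples, 5 of 10 fell in 5×FAD-Aβ3FTnAu (P2ry12, Selplg, Gpr34, Slc2a5 and Tmem119), where 2.58% of genes were called lower and 4.07% higher. Between 5×FAD-Aβ3FTnAu and 5×FAD-PBS the edgeR test called 0 of 10, with 2 members (Gpr34 and Selplg) at an unadjusted p under 0.05, as 11.3% of all genes were, and 0 called by DESeq2. Of all genes, 0.504% were called lower there and 0.136% higher. That fit took its spread from all 6 samples, WT-PBS included. With only the 2 groups of 5×FAD mice fitted, 1 member (Gpr34) was called lower, beside 2.83% of genes in either direction. The median log2 fold change of the members was -0.72 in 5×FAD-PBS against WT-PBS, beside -8.52e-05 over all genes tested. It was -1.07 in 5×FAD-Aβ3FTnAu against WT-PBS, beside -0.0068 over all genes, and -0.37 in 5×FAD-Aβ3FTnAu against 5×FAD-PBS, beside 0.0034. The comparisons share samples: WT-PBS enters the first 2, and each group of 5×FAD mice enters the last as well. Together the 10 genes took 4425 and 4461 CPM in 5×FAD-Aβ3FTnAu samples, 4784 and 5864 CPM in 5×FAD-PBS samples, and 9376 and 6941 CPM in WT-PBS samples.

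The counts moved with single samples, as did the share of all genes called in either direction, which was 7.37% for 5×FAD-PBS against WT-PBS, 6.65% for 5×FAD-Aβ3FTnAu against WT-PBS and 0.64% for 5×FAD-Aβ3FTnAu against 5×FAD-PBS with all samples. For 5×FAD-PBS against WT-PBS the count was 0 without 5×FAD-PBS replicate 1 (1.99% of genes called), 3 without 5×FAD-PBS replicate 2 (3.43%), 2 without WT-PBS replicate 1 (4.22%) and 6 without WT-PBS replicate 2 (9.91%). For 5×FAD-Aβ3FTnAu against WT-PBS it was 3 without 5×FAD-Aβ3FTnAu replicate 1 (2.92%), 2 without replicate 2 of that group (1.87%), 3 without WT-PBS replicate 1 (3.19%) and 6 without WT-PBS replicate 2 (10.2%). Between 5×FAD-Aβ3FTnAu and 5×FAD-PBS it was 2 without WT-PBS replicate 1 (Gpr34 and Selplg, beside 3.98% of genes) and 1 without WT-PBS replicate 2 (Gpr34, beside 3.18%). Among microglia without a mitochondrial UMI the counts were 5 in 5×FAD-Aβ3FTnAu against WT-PBS (9.57% of genes called) and 7 in 5×FAD-PBS against WT-PBS (8.32%). Among those with one they were 3 in each, beside 2.39% and 6.44% of genes.

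**Figure D1:**
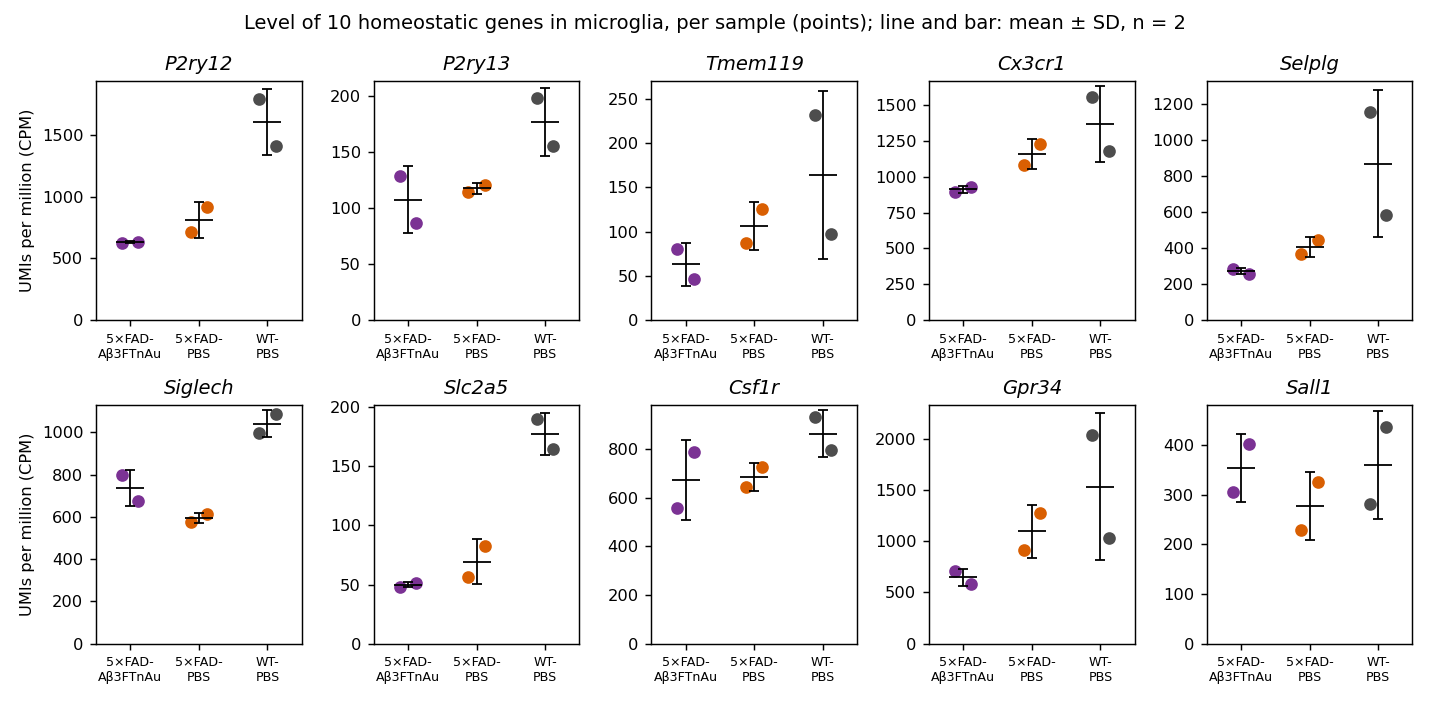
Level of each homeostatic gene in microglia, in CPM, for the 2 samples of each group (points), with the mean and SD as a line and bar. P2ry12 lies at 628 to 637 CPM in 5×FAD-Aβ3FTnAu samples and 712 to 916 CPM in 5×FAD-PBS samples, below the 1415 to 1798 CPM of WT-PBS samples, while the groups overlap for Sall1.

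P2ry12 and P2ry13 encode Gi-coupled receptors for ADP, and P2ry12 guides microglial processes towards released nucleotides. P2ry12 had 628 and 637 CPM in 5×FAD-Aβ3FTnAu samples, 712 and 916 CPM in 5×FAD-PBS samples, and 1798 and 1415 CPM in WT-PBS samples. All 4 samples of 5×FAD mice lay below both WT-PBS samples, and both 5×FAD-Aβ3FTnAu samples lay below both 5×FAD-PBS samples. By edgeR its log2 fold change was -1.38 (SE 0.20, adjusted p = 0.000396) in 5×FAD-Aβ3FTnAu against WT-PBS and -1.01 (SE 0.18, adjusted p = 0.00193) in 5×FAD-PBS against WT-PBS. Between 5×FAD-Aβ3FTnAu and 5×FAD-PBS it was -0.38 (SE 0.20, edgeR adjusted p = 0.482). P2ry12 kept its call in 5×FAD-Aβ3FTnAu against WT-PBS under all 30 alternatives run, and lost it in 5×FAD-PBS against WT-PBS under 2: without 5×FAD-PBS replicate 1, and among microglia with no plaque-state UMI.

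P2ry13, which neighbours P2ry12 on the chromosome, had 129 and 86.1 CPM in 5×FAD-Aβ3FTnAu samples, 114 and 121 CPM in 5×FAD-PBS samples, and 198 and 155 CPM in WT-PBS samples. Every 5×FAD sample was below both WT-PBS samples and the 2 groups of 5×FAD mice overlapped. Its log2 fold change did not pass the edgeR test in 5×FAD-Aβ3FTnAu against WT-PBS (-0.83, SE 0.33, adjusted p = 0.151) or in 5×FAD-PBS against WT-PBS (-0.65, SE 0.26, adjusted p = 0.157).

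Cx3cr1, the receptor for the neuronal chemokine fractalkine, had 893 and 930 CPM in 5×FAD-Aβ3FTnAu samples, 1084 and 1231 CPM in 5×FAD-PBS samples, and 1554 and 1183 CPM in WT-PBS samples. Only the 5×FAD-Aβ3FTnAu samples lay apart from both other groups, and the 5×FAD-PBS and WT-PBS samples overlapped. With edgeR it did not pass in 5×FAD-Aβ3FTnAu against WT-PBS (log2 fold change -0.63, SE 0.19, adjusted p = 0.0557), and it passed there without WT-PBS replicate 2 (adjusted p = 0.000396) and with microglia set without Fyb (adjusted p = 0.0423). For 5×FAD-PBS against WT-PBS the log2 fold change was -0.27 (SE 0.18, edgeR adjusted p = 0.436).

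Csf1r, the receptor for colony-stimulating factor 1 and interleukin-34, had 555 and 787 CPM in 5×FAD-Aβ3FTnAu samples, 645 and 725 CPM in 5×FAD-PBS samples, and 930 and 795 CPM in WT-PBS samples. The 5×FAD samples were lower, but the nearest 2 values were 787 CPM in a 5×FAD-Aβ3FTnAu sample and 795 CPM in a WT-PBS sample. Neither difference from WT-PBS passed the edgeR test (log2 fold change -0.39, SE 0.20, adjusted p = 0.289 for 5×FAD-Aβ3FTnAu, and -0.36, SE 0.19, adjusted p = 0.288 for 5×FAD-PBS).

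Gpr34, a receptor for lysophosphatidylserine, had 708 and 586 CPM in 5×FAD-Aβ3FTnAu samples, 916 and 1278 CPM in 5×FAD-PBS samples, and 2038 and 1028 CPM in WT-PBS samples. The WT-PBS samples bracketed one of the 5×FAD-PBS samples, and both 5×FAD-Aβ3FTnAu samples lay below every other sample. In edgeR it fell in 5×FAD-Aβ3FTnAu against WT-PBS (log2 fold change -1.31, SE 0.26, adjusted p = 0.00516), a call lost without 5×FAD-Aβ3FTnAu replicate 2 (adjusted p = 0.0658) and with mixed barcodes kept (adjusted p = 0.0563). For 5×FAD-PBS against WT-PBS its log2 fold change of -0.53 (SE 0.24, edgeR adjusted p = 0.217) turned to 0.11 without WT-PBS replicate 1, and it passed at -0.87 without WT-PBS replicate 2 and at -0.78 among microglia without a mitochondrial UMI. Between 5×FAD-Aβ3FTnAu and 5×FAD-PBS it was -0.78 (SE 0.26, edgeR adjusted p = 0.194). When only those 2 groups entered the edgeR fit, the value of -0.79 passed (adjusted p = 0.000724), and it also passed without either WT-PBS sample and with no filter on low counts.

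Selplg encodes P-selectin glycoprotein ligand 1, the counter-receptor of P-selectin. It had 282 and 258 CPM in 5×FAD-Aβ3FTnAu samples, 365 and 446 CPM in 5×FAD-PBS samples, and 1158 and 582 CPM in WT-PBS samples. The 3 groups did not overlap, although the WT-PBS samples lay far apart. The edgeR log2 fold change was -1.78 (SE 0.27, adjusted p = 0.000554) in 5×FAD-Aβ3FTnAu against WT-PBS, which passed under all 30 alternatives, and -1.17 (SE 0.23, adjusted p = 0.00259) in 5×FAD-PBS against WT-PBS. Without WT-PBS replicate 1 the value for 5×FAD-PBS was -0.50 and did not pass (edgeR adjusted p = 0.281), and the call was also lost without 5×FAD-PBS replicate 1, with equal numbers of barcodes (adjusted p = 0.0680) and with no plaque-state UMI (-0.62, adjusted p = 0.348).

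Siglech, a microglial receptor of the family of sialic-acid-binding lectins, had 797 and 677 CPM in 5×FAD-Aβ3FTnAu samples, 578 and 613 CPM in 5×FAD-PBS samples, and 998 and 1086 CPM in WT-PBS samples. It was the member whose 5×FAD-Aβ3FTnAu samples both lay above both 5×FAD-PBS samples, with WT-PBS samples above them all. By edgeR it fell in 5×FAD-PBS against WT-PBS (log2 fold change -0.82, SE 0.18, adjusted p = 0.00596) and did not pass in 5×FAD-Aβ3FTnAu against WT-PBS (-0.53, SE 0.19, adjusted p = 0.102). The direct comparison of 5×FAD-Aβ3FTnAu with 5×FAD-PBS gave 0.29 (SE 0.18, edgeR adjusted p = 0.596), so a difference between treated and untreated 5×FAD mice was not shown. The fall in 5×FAD-PBS was lost without either 5×FAD-PBS sample, with no plaque-state UMI and with DESeq2 (adjusted p = 0.0728).

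Tmem119, a membrane protein used as a microglial marker, had 80.5 and 45.9 CPM in 5×FAD-Aβ3FTnAu samples, 87.3 and 126 CPM in 5×FAD-PBS samples, and 232 and 96.9 CPM in WT-PBS samples. Behind these levels were few UMIs: 10 and 8, 39 and 73, and 55 and 10 in the same order. The 5×FAD-PBS samples overlapped WT-PBS. For Tmem119 the 5×FAD-Aβ3FTnAu samples lay below all others, though the nearest values were 80.5 CPM (5×FAD-Aβ3FTnAu) and 87.3 CPM (5×FAD-PBS). In edgeR it fell in 5×FAD-Aβ3FTnAu against WT-PBS (log2 fold change -1.63, SE 0.44, adjusted p = 0.0307), a call lost under 13 of 30 alternatives, among them leaving out either 5×FAD-Aβ3FTnAu sample, WT-PBS replicate 1, and DESeq2. Its value of -0.78 for 5×FAD-PBS against WT-PBS (SE 0.32, edgeR adjusted p = 0.155) turned to 0.17 without WT-PBS replicate 1, and passed without WT-PBS replicate 2 (-1.08, adjusted p = 0.00374) and among microglia without a mitochondrial UMI (-1.75, adjusted p = 0.0119).

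Slc2a5 encodes GLUT5, a fructose transporter that in brain marks microglia. It had 48.3 and 51.7 CPM in 5×FAD-Aβ3FTnAu samples, 56.0 and 82.7 CPM in 5×FAD-PBS samples, and 189 and 165 CPM in WT-PBS samples. These values rest on few UMIs: 6 and 9, 25 and 48, and 45 and 17 in the same order. For Slc2a5 the 3 groups did not overlap, though the nearest values were 51.7 CPM (5×FAD-Aβ3FTnAu) and 56.0 CPM (5×FAD-PBS). It fell by edgeR in 5×FAD-Aβ3FTnAu against WT-PBS (log2 fold change -1.87, SE 0.40, adjusted p = 0.00791) and in 5×FAD-PBS against WT-PBS (-1.37, SE 0.29, adjusted p = 0.00543). Each call was lost under 10 of 30 alternatives while the value stayed below 0: without either 5×FAD-Aβ3FTnAu sample or WT-PBS replicate 1 for the first comparison, and without 5×FAD-PBS replicate 1 or WT-PBS replicate 1 for the other.

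Sall1, a zinc-finger transcription factor that maintains microglial identity, had 306 and 402 CPM in 5×FAD-Aβ3FTnAu samples, 228 and 325 CPM in 5×FAD-PBS samples, and 282 and 436 CPM in WT-PBS samples. All 3 groups overlapped. Its edgeR log2 fold change was 0.05 (SE 0.27, adjusted p = 0.944) in 5×FAD-Aβ3FTnAu against WT-PBS and -0.30 (SE 0.24, adjusted p = 0.543) in 5×FAD-PBS against WT-PBS. The first took the opposite sign under 9 of 30 alternatives.

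Counted by overlap of samples alone, 9 of 10 members (all but Sall1) were lower in both 5×FAD-Aβ3FTnAu samples than in both WT-PBS samples, where 21.5% of genes were. For 5×FAD-PBS against WT-PBS it was 6 of 10 (P2ry12, P2ry13, Selplg, Siglech, Slc2a5 and Csf1r), where 22.2% of genes were. Between the groups of 5×FAD mice, 6 of 10 members were lower in 5×FAD-Aβ3FTnAu than in 5×FAD-PBS without overlap (P2ry12, Tmem119, Cx3cr1, Selplg, Slc2a5 and Gpr34), where 22.5% of genes were, and 1 (Siglech) was higher, where 22.3% of genes were.

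**Figure D2:**
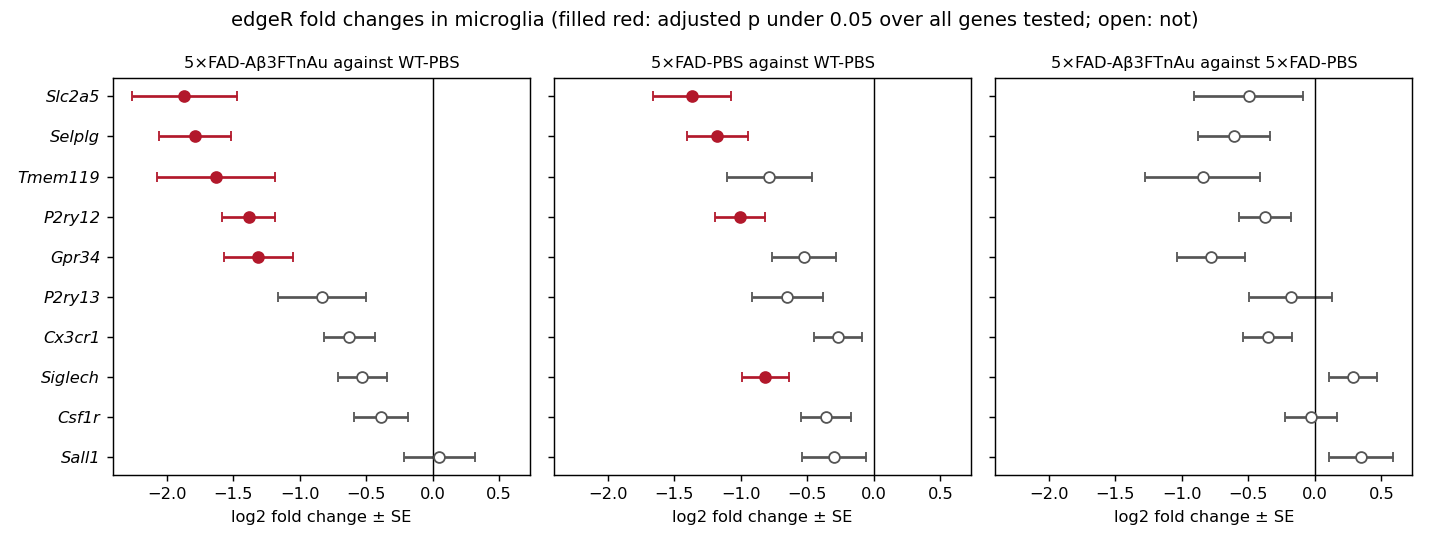
Log2 fold change with its SE for each member in 3 comparisons, from the edgeR fit over all 6 samples. Filled red points passed an adjusted p of 0.05 over the 5157 genes tested: 5 members in 5×FAD-Aβ3FTnAu against WT-PBS, 4 in 5×FAD-PBS against WT-PBS and 0 in 5×FAD-Aβ3FTnAu against 5×FAD-PBS.

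The share of microglia in which each transcript was seen gave a second view. Every barcode was thinned to 500 UMIs so that depth could not differ, and intervals are exact 95% binomial intervals that cover counting error only. P2ry12 was seen in 23.1% (16.4% to 30.9%) and 22.0% (16.01% to 29.1%) of microglia in 5×FAD-Aβ3FTnAu samples, in 30.2% (25.5% to 35.3%) and 33.1% (29.1% to 37.2%) in 5×FAD-PBS samples, and in 55.5% (49.0% to 61.8%) and 49.5% (39.5% to 59.5%) in WT-PBS samples. For this gene the intervals of every 5×FAD sample lay below those of both WT-PBS samples. Selplg was seen in 11.9% and 10.7% of microglia in 5×FAD-Aβ3FTnAu samples, 16.4% and 19.5% in 5×FAD-PBS samples, and 42.5% and 25.2% in WT-PBS samples. Gpr34 was seen in 33.6% and 23.8% in 5×FAD-Aβ3FTnAu samples, 34.5% and 44.8% in 5×FAD-PBS samples, and 60.3% and 42.7% in WT-PBS samples. Siglech was seen in 32.9% and 25.6% in 5×FAD-Aβ3FTnAu samples, 27.4% and 24.3% in 5×FAD-PBS samples, and 38.1% and 40.8% in WT-PBS samples. With 2 samples against 2, an exact permutation test cannot go below a two-sided p of 0.333, so shares are given without a test.

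Shares of the other members were as follows. Cx3cr1 was seen in 33.6% and 31.5% in 5×FAD-Aβ3FTnAu samples, 40.1% and 43.7% in 5×FAD-PBS samples, and 48.6% and 37.9% in WT-PBS samples. Csf1r was seen in 21.0% and 35.7% in 5×FAD-Aβ3FTnAu samples, 24.3% and 31.2% in 5×FAD-PBS samples, and 41.7% and 30.1% in WT-PBS samples, so its groups overlapped. Sall1 lay between 10.5% and 19.0% in all 6 samples. The rarest transcripts had few UMIs behind them. P2ry13 was seen in 6.99% and 4.76% in 5×FAD-Aβ3FTnAu samples, 6.21% and 5.95% in 5×FAD-PBS samples, and 8.91% and 7.77% in WT-PBS samples. Slc2a5 was seen in 2.80% and 3.57% in 5×FAD-Aβ3FTnAu samples, 3.39% and 4.28% in 5×FAD-PBS samples, and 8.50% and 5.83% in WT-PBS samples. For both, the intervals of all 6 samples overlapped. Overlap of intervals is not a test, so these shares neither show nor exclude a difference. Tmem119 was seen in 5.59% and 0.595% in 5×FAD-Aβ3FTnAu samples, 4.24% and 5.76% in 5×FAD-PBS samples, and 13.4% and 5.83% in WT-PBS samples. The interval of WT-PBS replicate 1 (9.38% to 18.2%) lay above those of both 5×FAD-PBS samples, and that of WT-PBS replicate 2 did not.

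Other cell classes gave a background for such shares, which may come from free RNA, though its source was not tested. Oligodendrocytes, taken as lacking these genes, had median depths of 820 to 1357 UMIs against 844 to 1167 in microglia. In them P2ry12 was seen in 0.746% to 1.51% of barcodes, and the other 9 members in 0% to 2.40%. The background was not the same in every class. In thinned neurons P2ry12 was seen in 2.58% to 9.14%, and the other 9 in 0% to 1.66%. For Tmem119 itself the oligodendrocyte range was 0% to 0.567%, close to the 0.595% (1 of 168 barcodes) in microglia of 5×FAD-Aβ3FTnAu replicate 2, a share that rests on 1 barcode, so no level is read from it.

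Microglia of 5×FAD mice also held fewer of the 10 transcripts at a time. After thinning, a microglial barcode showed a mean of 1.82 and 1.77 members in 5×FAD-Aβ3FTnAu samples, 1.98 and 2.29 in 5×FAD-PBS samples, and 3.296 and 2.63 in WT-PBS samples. Barcodes with 3 or more members made up 25.2% and 26.2% in 5×FAD-Aβ3FTnAu samples, 32.5% and 41.1% in 5×FAD-PBS samples, and 69.2% and 55.3% in WT-PBS samples. Barcodes with no member made up 11.2% and 19.6% in 5×FAD-Aβ3FTnAu samples, 15.5% and 10.2% in 5×FAD-PBS samples, and 2.43% and 12.6% in WT-PBS samples, and here the groups overlapped.

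**Figure D3:**
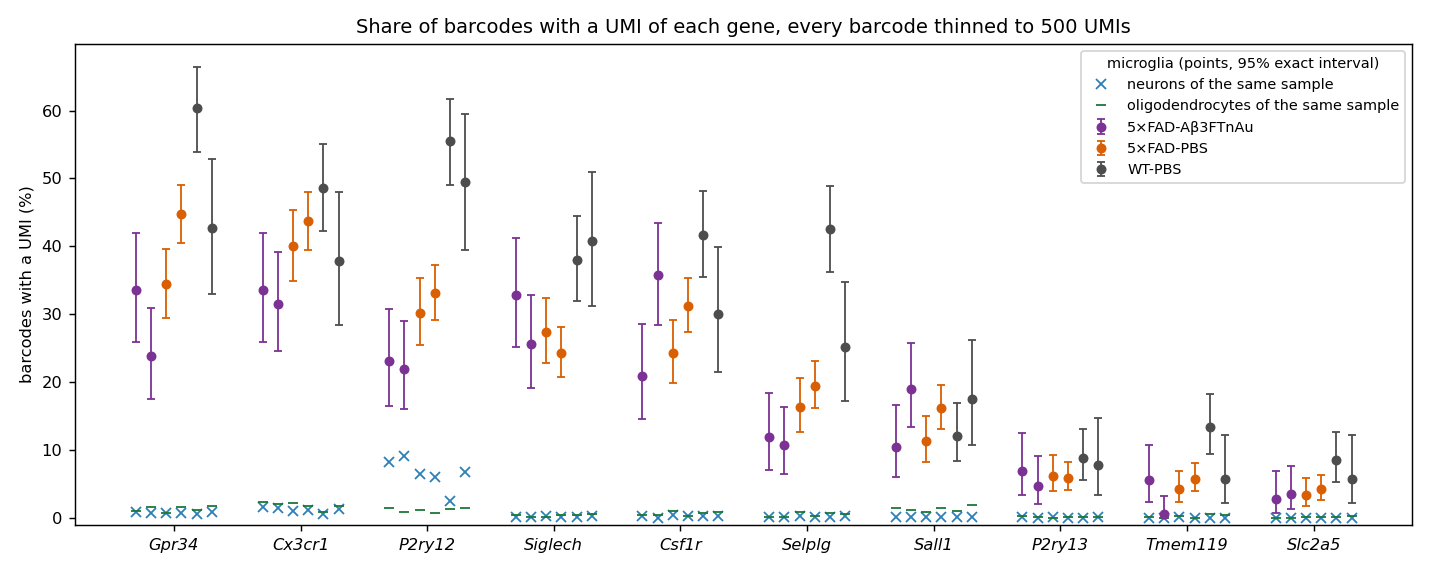
Share of microglia with a UMI of each member after thinning to 500 UMIs, with exact 95% intervals, 1 point per sample, beside the shares in neurons (crosses) and oligodendrocytes (dashes) of the same sample. P2ry12 separates 5×FAD from WT-PBS samples most plainly (22.0% to 33.1% against 49.5% and 55.5%), and it also has the highest share in neurons.

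The homeostatic genes were lower in the 5×FAD microglia that carried plaque-state transcripts. Barcodes were divided by whether, after thinning, they held a UMI of Cst7, Lpl, Itgax, Spp1, Axl, Gpnmb, Lgals3, Ank or Igf1, as 36 of 143 and 58 of 168 did in 5×FAD-Aβ3FTnAu samples, 184 of 354 and 232 of 538 in 5×FAD-PBS samples, and 12 of 247 and 6 of 103 in WT-PBS samples. With such a UMI the 10 members summed to 3111 and 2586 CPM in 5×FAD-Aβ3FTnAu samples and 3837 and 4552 CPM in 5×FAD-PBS samples. Without one they summed to 4860 and 5055 CPM in 5×FAD-Aβ3FTnAu samples and 5953 and 7222 CPM in 5×FAD-PBS samples. The sum was thus lower beside a plaque-state UMI in 4 of 4 samples of 5×FAD mice. In WT-PBS samples the sums were 9500 and 6333 CPM with such a UMI, from 12 and 6 barcodes, and 9370 and 6577 CPM without.

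By gene, P2ry12, Selplg, Siglech, Csf1r and Gpr34 had lower values beside a plaque-state UMI in 4 of 4 samples of 5×FAD mice, Cx3cr1 and Sall1 in 3 of 4, and P2ry13 in 2 of 4. Tmem119 and Slc2a5 were lower in both 5×FAD-PBS samples, and in the 5×FAD-Aβ3FTnAu samples they had 0 to 2 UMIs in such barcodes, too few to read a direction. P2ry12 had 222 and 276 CPM with such a UMI in 5×FAD-Aβ3FTnAu samples and 609 and 560 CPM in 5×FAD-PBS samples, against 654 and 582 CPM without one in 5×FAD-Aβ3FTnAu samples and 918 and 1176 CPM in 5×FAD-PBS samples. Siglech had 278 and 310 CPM with such a UMI in 5×FAD-Aβ3FTnAu samples and 533 and 388 CPM in 5×FAD-PBS samples, against 1028 and 873 CPM without one in 5×FAD-Aβ3FTnAu samples and 788 and 778 CPM in 5×FAD-PBS samples. The values with a UMI in 5×FAD-Aβ3FTnAu samples rest on 4 to 9 UMIs each for these 2 genes, and on 4 and 2 UMIs for Selplg.

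The fits were repeated with plaque-state microglia set aside. With only barcodes that held no plaque-state UMI at full depth, an alternative chosen after seeing the data, 99 and 94 microglia were left in 5×FAD-Aβ3FTnAu samples, 104 and 242 in 5×FAD-PBS samples, and 223 and 91 in WT-PBS samples. By edgeR, 4 of 10 members were still called lower in 5×FAD-Aβ3FTnAu against WT-PBS (P2ry12 at -1.11, Selplg at -1.57, Gpr34 at -1.25 and Slc2a5 at -1.89), beside 3.09% of the 2883 genes tested, in either direction. For 5×FAD-PBS against WT-PBS 0 of 10 were called, beside 0.59% of genes, and P2ry12 stood at -0.65 (SE 0.22, adjusted p = 0.274) and Siglech at -0.34 (SE 0.19, adjusted p = 0.579). The direct comparison of 5×FAD-Aβ3FTnAu with 5×FAD-PBS in these barcodes called 0 members as well, beside 0.382% of genes, with Selplg at -0.95 (SE 0.30, edgeR adjusted p = 0.296), so a difference between the 2 groups of 5×FAD mice was not shown here either.

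**Figure D4:**
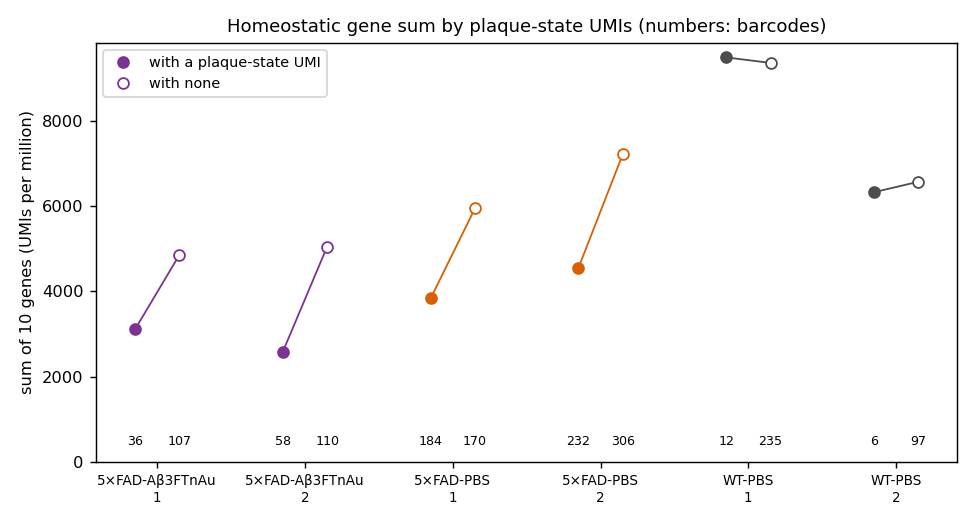
Summed level of the 10 members, in CPM, in microglia with (filled) and without (open) a plaque-state UMI, per sample, with the number of barcodes below each point. In all 4 samples of 5×FAD mice the filled point is lower (2586 to 4552 CPM against 4860 to 7222 CPM), and in WT-PBS samples the points lie close together.

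Outside microglia, P2ry12 was also found in neurons, oligodendrocyte precursors and astrocytes. The other 9 members did not exceed 59.7 CPM (Gpr34, in precursors) in any sample of neurons, oligodendrocytes, their precursors or astrocytes. In oligodendrocytes P2ry12 had 11.04 to 46.4 CPM and Siglech 6.13 to 15.6 CPM, against 628 to 1798 CPM and 578 to 1086 CPM in microglia. In neurons P2ry12 had 174 and 181 CPM in 5×FAD-Aβ3FTnAu samples, 102 and 118 CPM in 5×FAD-PBS samples, and 59.1 and 120 CPM in WT-PBS samples, and it was seen in 2.58% to 9.14% of thinned neurons. Oligodendrocyte precursors held P2ry12 at 163 and 187 CPM in 5×FAD-Aβ3FTnAu samples, 92.6 and 72.5 CPM in 5×FAD-PBS samples, and 48.4 and 158 CPM in WT-PBS samples, and astrocytes at 50.4 to 142 CPM. Med12l, the gene on the opposite strand, had 220 and 241 CPM in neurons of 5×FAD-Aβ3FTnAu samples, 219 and 230 CPM in 5×FAD-PBS samples, and 185 and 206 CPM in WT-PBS samples. In microglia Med12l had 1110 and 1068 CPM in 5×FAD-Aβ3FTnAu samples, 674 and 815 CPM in 5×FAD-PBS samples, and 577 and 882 CPM in WT-PBS samples, so that it was highest where P2ry12 was lowest. Cask, on the strand opposite Gpr34, had 555 and 574 CPM in microglia of 5×FAD-Aβ3FTnAu samples, where Gpr34 was lowest. It had 450 and 406 CPM in 5×FAD-PBS samples and 358 and 485 CPM in WT-PBS samples. The part of Med12l in the P2ry12 values, and of Cask in those of Gpr34, was not tested.

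**Figure D5:**
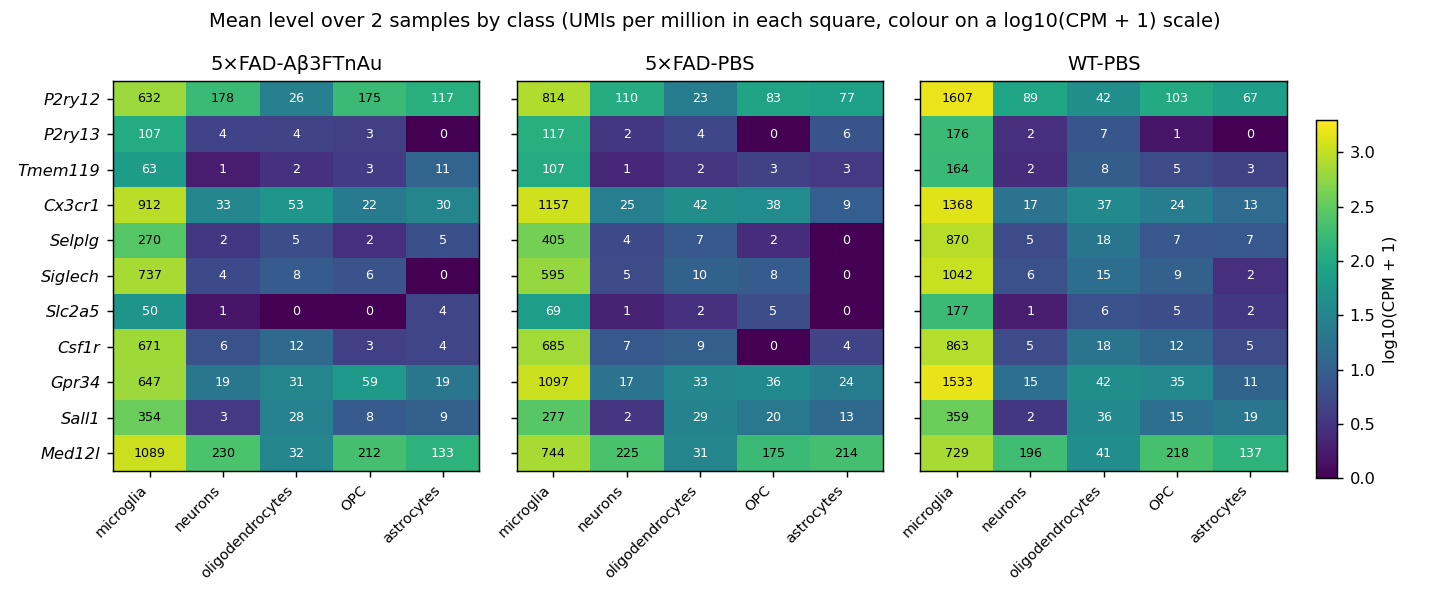
Mean level over the 2 samples of each group, in CPM, for the 10 members and Med12l in 5 cell classes, coloured on a log10(CPM + 1) scale (OPC, oligodendrocyte precursors). All members are highest in microglia, and P2ry12 also has 59.1 to 181 CPM in neurons.

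Of 21 other genes of the homeostatic programme, 8 fell in 5×FAD-Aβ3FTnAu against WT-PBS (edgeR), beside 2.58% of all genes called lower. In 5×FAD-PBS against WT-PBS 5 fell, beside 3.04%. The median log2 fold changes of the 21 were -0.80 and -0.60 in the same order. Fcrls, an Fc-receptor-like scavenger protein, had 185 and 172 CPM in 5×FAD-Aβ3FTnAu samples, 405 and 315 CPM in 5×FAD-PBS samples, and 724 and 427 CPM in WT-PBS samples. Ltc4s, leukotriene C4 synthase, had 161 and 40.2 CPM in 5×FAD-Aβ3FTnAu samples, 103 and 177 CPM in 5×FAD-PBS samples, and 821 and 204 CPM in WT-PBS samples. Both passed in each comparison with WT-PBS, as did Lpcat2, a lysophospholipid acyltransferase, and Ecscr. Ecscr had 40.2 and 28.7 CPM in 5×FAD-Aβ3FTnAu samples, 35.8 and 44.8 CPM in 5×FAD-PBS samples, and 131 and 136 CPM in WT-PBS samples. Crybb1, called lower in 5×FAD-PBS against WT-PBS, had 24.1 and 23.0, 22.4 and 13.8, and 63.2 and 77.6 CPM in the same order. Ecscr and Crybb1 entered the test through the WT-PBS samples and could hardly come out higher, so their calls are a description only. Olfml3 (log2 fold change -1.97, edgeR adjusted p = 0.00791) and Cst3 passed in 5×FAD-Aβ3FTnAu against WT-PBS. Cst3, the secreted protease inhibitor cystatin C, was the 1 gene of this list called in 5×FAD-Aβ3FTnAu against 5×FAD-PBS (log2 fold change -1.70, SE 0.38, edgeR adjusted p = 0.0431), beside 0.504% of all genes called lower. It had 1014 and 827 CPM in 5×FAD-Aβ3FTnAu samples, 2821 and 3079 CPM in 5×FAD-PBS samples, and 7877 and 1832 CPM in WT-PBS samples. Nav3 did not pass in 5×FAD-Aβ3FTnAu against WT-PBS (-0.16, edgeR adjusted p = 0.668) or in 5×FAD-PBS against WT-PBS (-0.55, adjusted p = 0.0573), and neither did Mef2a (-0.06, adjusted p = 0.897, and -0.41, adjusted p = 0.176).

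Ligands, partners and regulators of the members behaved differently from one another. Of 18 tested, 1 rose in 5×FAD-Aβ3FTnAu against WT-PBS (Csf1), beside 4.07% of all genes called higher, and 1 of 18 is near that share. In 5×FAD-PBS against WT-PBS 3 rose (Csf1, Tyrobp and Tgfbr2), beside 4.32%. The median log2 fold changes of the 18 were 0.0035 and 0.13 in the same order. Csf1, a ligand of Csf1r, had 153 and 115 CPM in microglia of 5×FAD-Aβ3FTnAu samples and 193 and 183 CPM in 5×FAD-PBS samples (edgeR adjusted p = 0.000320 and 3.21e-06 against WT-PBS). In WT-PBS samples it had 4.21 and 0 CPM, from 1 and 0 UMIs, so it entered the test through the 5×FAD samples. Tgfbr2, the ligand-binding receptor of transforming growth factor beta, had 780 and 769 CPM in 5×FAD-Aβ3FTnAu samples, 786 and 778 CPM in 5×FAD-PBS samples, and 417 and 572 CPM in WT-PBS samples. It passed in 5×FAD-PBS against WT-PBS (log2 fold change 0.69, edgeR adjusted p = 0.0326) and not in 5×FAD-Aβ3FTnAu against WT-PBS (0.66, adjusted p = 0.0580). Tyrobp, the signalling adaptor of Trem2, had 177 and 144 CPM in 5×FAD-Aβ3FTnAu samples, 479 and 475 CPM in 5×FAD-PBS samples, and 240 and 155 CPM in WT-PBS samples. It was called lower in 5×FAD-Aβ3FTnAu against 5×FAD-PBS (log2 fold change -1.60, SE 0.24, edgeR adjusted p = 0.000828), the 1 gene of the 18 called there. Of all genes, 0.504% were called lower in that comparison. Tgfbr1, Mef2c, Entpd1 and Irf8 did not pass in any of the 3 comparisons. Fractalkine (Cx3cl1), the ligand of Cx3cr1, had 38.9 and 41.5 CPM in neurons of 5×FAD-Aβ3FTnAu samples, 49.1 and 60.1 CPM in 5×FAD-PBS samples, and 66.0 and 46.1 CPM in WT-PBS samples.

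Most plaque-state genes were higher in both groups of 5×FAD mice. Of 8 tested, 7 rose in 5×FAD-Aβ3FTnAu against WT-PBS (all but Spp1, edgeR adjusted p = 0.280), beside 4.07% of all genes. In 5×FAD-PBS against WT-PBS 8 rose, beside 4.32%. Cst7 and Lpl (2 of 8) were lower in 5×FAD-Aβ3FTnAu against 5×FAD-PBS, beside 0.504%. All but Ank had 0 to 4 UMIs over the 2 WT-PBS samples. They entered the test through the 5×FAD samples and could hardly come out lower, so the counts against WT-PBS are a description only. The median log2 fold change of the 8 genes in 5×FAD-PBS against WT-PBS was 5.10. It was 4.42 with Itgax and Gpnmb, at 0 in both WT-PBS samples, set at the bound that 3 UMIs over the group allow. For 5×FAD-Aβ3FTnAu against WT-PBS it was 3.91, or 2.92 at that bound. Cst7, a cystatin, had 6 and 10 UMIs in 5×FAD-Aβ3FTnAu samples, 100 and 107 UMIs in 5×FAD-PBS samples, and 1 and 0 UMIs in WT-PBS samples. Lpl, lipoprotein lipase, had 13 and 13 UMIs in 5×FAD-Aβ3FTnAu samples, 125 and 118 UMIs in 5×FAD-PBS samples, and 3 and 1 UMIs in WT-PBS samples. Between 5×FAD-Aβ3FTnAu and 5×FAD-PBS the edgeR log2 fold changes were -1.93 (SE 0.34, adjusted p = 0.00509) for Cst7 and -1.46 (SE 0.31, adjusted p = 0.0250) for Lpl.

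The genes whose microglial level most resembled the mean of the 10 over the 6 samples were Rer1, Atp6ap2, Nlgn1, Chn1, Ice1 and Rab2b, with Pearson correlations of log2(CPM + 10) of 0.994 to 0.975 among 4294 genes with a mean of at least 50 CPM. Rer1, a sorting receptor of the early secretory pathway, had 56.3 and 45.9 CPM in 5×FAD-Aβ3FTnAu samples, 58.2 and 72.3 CPM in 5×FAD-PBS samples, and 143 and 96.9 CPM in WT-PBS samples. These points share their libraries and depth, and the correlations describe these 6 samples only.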

How the data were processed

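Hippocampal tissue was profiled with Chromium Single Cell 3' v3.1 chemistry, per the labels' protocols. Per the file headers, Cell Ranger 7.1.0 wrote the deposited matrices, which hold raw UMI counts for 32285 genes; the submitters' processing notes name mm10 and Seurat 4.3.0.1 with no role. Intron and strand counting are not given in the sources used here. Barcodes with at least 500 UMIs, 300 genes and at most 15% mitochondrial UMIs were kept. The top Scrublet scores, 0.8% per 1000 barcodes, were removed as doublets, since its own threshold called between 0 and 501 per library. Microglia and other classes were set by marker UMIs, and barcodes that met more than 1 class rule were left out. Of those that met the microglia rule, 4 to 24 per sample were left out in this way. Counts were summed per sample and tested with edgeR 4.0.16 (quasi-likelihood, TMM, filterByExpr, all 6 samples in 1 fit, Benjamini-Hochberg over all 5157 genes); SE was taken as |log2 fold change| divided by the square root of the F statistic. DESeq2 1.42.0 was an alternative. The fit was tested on simulated data. Members, lists, and named genes (all members; the called genes of smallest p and the uncalled of highest CPM in each list; the 6 most alike) were chosen with earlier results of these data known. Clec7a of the plaque-state list was not analysed here, and 1 gene of the marker and homeostatic lists is not reported here. Positions are from GENCODE vM21 (GRCm38). Scrublet was run in scanpy 1.11.5.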

Additional observations from a re-analysis of the deposited data

How the results depend on the processing

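Members called numbered 4 in 5×FAD-PBS against WT-PBS, 5 in 5×FAD-Aβ3FTnAu against WT-PBS and 0 in 5×FAD-Aβ3FTnAu against 5×FAD-PBS, and all genes called 380, 343 and 33 (7.37%, 6.65% and 0.64% of 5157). Members are counted when lower, and genes in either direction. Genes tested ran from 2297 with a mitochondrial UMI to 18804 with no filter on low counts, so percentages of genes tested are given below. Leaving out 1 sample gave 0 to 6, 2 to 6 and 0 to 2 members, and 112 to 674, 129 to 694 and 16 to 216 genes in the same order; a lone sample is assumed to vary like the other groups. In 5×FAD-PBS against WT-PBS the counts of members and of genes were 2 and 89 with DESeq2 (1.73%) and 7 and 240 without a mitochondrial UMI (8.32%). They were 2 and 110 with 103 barcodes per sample (3.67%), and 0 and 17 with no plaque-state UMI (0.59%). With at least 5 UMIs of the setting genes they were 3 and 252 (6.63%), and with at least 1000 UMIs per barcode 4 and 251 (8.04%). With a mitochondrial UMI they were 3 and 148 (6.44%). Without barcodes holding a leukocyte-list UMI they were 4 and 188 (5.35%), and when thinned 3 and 203 (6.79%). In 5×FAD-Aβ3FTnAu against WT-PBS the counts were 3 and 95 with DESeq2 (1.84%), 3 and 180 with at least 5 setting UMIs (4.73%), and 3 and 90 with mixed barcodes kept (1.51%). They were 3 and 55 with a mitochondrial UMI (2.39%), and 3 and 123 with equal barcodes (4.1%). With only the 2 groups fitted they were 4 and 141 (3.82%), and with at least 1000 UMIs 5 and 163 (5.22%). Without barcodes holding a leukocyte-list UMI they were 4 and 198 (5.63%). With no plaque-state UMI they were 4 and 89 (3.09%), and when thinned 4 and 193 (6.45%). In 5×FAD-Aβ3FTnAu against 5×FAD-PBS the counts were 1 and 115 with no filter on low counts (0.612%) and 1 and 176 with only the 2 groups fitted (2.83%). They were 0 members with 15 genes by DESeq2 (0.291%), 88 with mixed barcodes kept (1.47%), 11 with no plaque-state UMI (0.382%) and 16 with equal barcodes (0.534%). Signs turned for members that had not passed. In 5×FAD-PBS against WT-PBS, Tmem119 stood at 0.17 and Gpr34 at 0.11 without WT-PBS replicate 1, Sall1 at 0.0048 without WT-PBS replicate 2, and Cx3cr1 at 0.10, Csf1r at 0.079 and Sall1 at 0.061 with no plaque-state UMI. In 5×FAD-Aβ3FTnAu against WT-PBS, Sall1 stood at -0.0074 with DESeq2, -0.034 with the replicate block, -0.14 without 5×FAD-Aβ3FTnAu replicate 2, -0.28 without WT-PBS replicate 1, -0.053 with setting genes at 4000 CPM, -0.27 with at least 1000 UMIs, -0.11 with mixed barcodes kept, -0.00197 without a mitochondrial UMI and -0.088 with equal barcodes. In 5×FAD-Aβ3FTnAu against 5×FAD-PBS, Csf1r stood at 0.20 without 5×FAD-Aβ3FTnAu replicate 1, 0.036 without 5×FAD-PBS replicate 2, 0.32 without a mitochondrial UMI, 0.033 and 0.016 when microglia were set without Inpp5d or Ikzf1, and 0.049 with equal barcodes; P2ry13 stood at 0.13 without 5×FAD-Aβ3FTnAu replicate 2, 0.12 without a mitochondrial UMI and 0.15 with equal barcodes; and Slc2a5 at 0.11 without a mitochondrial UMI. Leaving out 1 sample gave ranges of -1.08 to 0.17 for Tmem119, -0.87 to 0.11 for Gpr34 and -0.63 to 0.0048 for Sall1 in the first comparison, -0.28 to 0.36 for Sall1 in the next, and -0.30 to 0.20 for Csf1r and -0.44 to 0.13 for P2ry13 in the last. The causes were not tested. With no filter on low counts the median of all genes stood at 0.15 in 5×FAD-PBS against WT-PBS and -0.11 in 5×FAD-Aβ3FTnAu against 5×FAD-PBS. Deviations of same-numbered samples had correlations of -0.07, -0.04 and -0.05, so a pairing by number was not shown. Counting error pulls such correlations towards 0, so a pairing is not excluded. The replicate block gave 4, 4 and 0 members and 259, 242 and 25 genes (5.02%, 4.69% and 0.485%). Of 30 shares averaged over a group, 6 moved by more than 1 SD with at least 5 setting UMIs, and the deeper thinning to 1000 UMIs and no thinning moved 29 and 28. The microglial sums of 103153 to 580673 UMIs limit members of low level, Slc2a5 and Tmem119 above all.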
